A study of Mus musculus with 2 samples.

Results

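Rab GTPases are small membrane-bound switches that label vesicles and organelles and recruit the proteins that move, tether and fuse them. A Rab is active when it carries GTP and inactive when it carries GDP, guanine exchange factors (GEFs) switch it on, GTPase-activating proteins (GAPs) switch it off, and lipid tails added by geranylgeranyl transferase hold it in membranes. In marrow, Rabs serve the receptor recycling and matrix secretion of stromal cells and also the granules and phagosomes of blood cells.

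The Rab genes described here are all those whose symbol in the array's platform annotation is Rab followed by digits and at most 1 letter, so that effectors and regulators are left out. There were 51 such genes among 16390 named genes, and each had 1 probe. The samples were bone marrow stromal cells of C57BL/6 mice, taken 1 day after total body irradiation with 9.5 Gy, taken 3 days after the same irradiation, or not irradiated. Each time point had 1 two-channel array with irradiated RNA in Cy3 and unirradiated RNA in Cy5, and no dye swap was used here. The design text mentions 6 mice, without their division among groups or any pooling, and the separation of stromal cells from other marrow is not given in the sources.

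No value has a replicate error, and no test was possible, since each time point rests on a single array. Values are log2 ratios with the median of all named genes on the array set to 0, and genes are called higher or lower from a 2-fold ratio upward in size. The labels do not name the numerator of the ratio, and the sample titles put the unirradiated sample first. A positive value is taken as more transcript in irradiated RNA. This direction is likely rather than established. It rests on p53 targets, which radiation induces: their median was 1.60 at day 1, where that of mitotic genes was 0.87, and 1.33 at day 3, where that of mitotic genes was -3.10. If the ratio runs the other way, every "higher" and "lower" below is exchanged.

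Markers of several blood cell types moved strongly on these arrays, and those of others less so. At day 1, 17 of 17 granulocyte markers were at least 2-fold higher, with a median of 6.18 and with Csf3r at 7.97 and Cebpe at 7.18, and so were 13 of 13 pan-leukocyte markers, with a median of 5.13 and with Ptprc at 7.12 and Cd53 at 8.17, and 9 of 12 macrophage markers. Of 9 erythroid markers, 8 were at least 2-fold lower at day 1. On that array 4 of 5 B lineage and 4 of 7 megakaryocyte markers were within 2-fold, with medians of -0.55 and 0.49. Of T and NK markers, 3 of 4 were at least 2-fold higher. At day 3 the granulocyte median was -1.36 over 13 genes and the pan-leukocyte median -0.29 over 8 genes. Csf3r, Cebpe, Ptprc and Cd53 had no ratio at day 3, so the medians of the arrays cover different genes. The erythroid median at day 3 was -1.79, with 9 of 11 genes past 2-fold downward. The B lineage median was -1.60 over 4 genes and the megakaryocyte median -1.04 over 5 genes. All 5 T and NK markers were within 2-fold at day 3. On the same array 15 of 16 endothelial, 7 of 11 adipocyte and 5 of 10 macrophage markers were at least 2-fold higher, with medians of 1.66, 1.10 and 0.93. Mesenchymal stromal markers had medians of -0.50 at day 1 and 0.45 at day 3, and day 1 ratios existed for 13 of their 14 named genes. Of osteoblast markers, 5 of 10 were at least 2-fold lower at day 1 and none higher, with a median of -1.03. At day 3, 4 of 11 were lower and 1 higher, with a median of -0.07. Endothelial and adipocyte medians at day 1 were 0.36 and 0.18. In such bulk RNA, fewer cells of a type and less RNA per cell cannot be told apart.

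A ratio was given for 43 Rab genes at day 1 and for 44 at day 3, and 40 had one on both arrays. Rab25, Rab39, Rab3b and Rab3c had none on either array, which is 7.84% of the Rab genes, against 26.6% of all named genes. Rab19, Rab33a and Rab36 had a ratio at day 1 alone, and Rab15, Rab39b, Rab5b and Rab6b at day 3 alone.

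At day 1 after irradiation higher Rab genes outnumbered lower ones. Of 43 with a ratio, 13 were at least 2-fold higher (30.2%), where the share over all 10434 named genes was 19.6%. Another 3 were at least 2-fold lower (6.98%), where the share over all genes was 11.1%. The median log2 ratio of the Rab genes was 0.50, against 0 for all named genes by construction, and 28 of the 43 lay above 0. The 13 higher genes stood on the array where the granulocyte and pan-leukocyte lists were highest, and the part of those cells in the result was not tested.

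**Figure D1:**
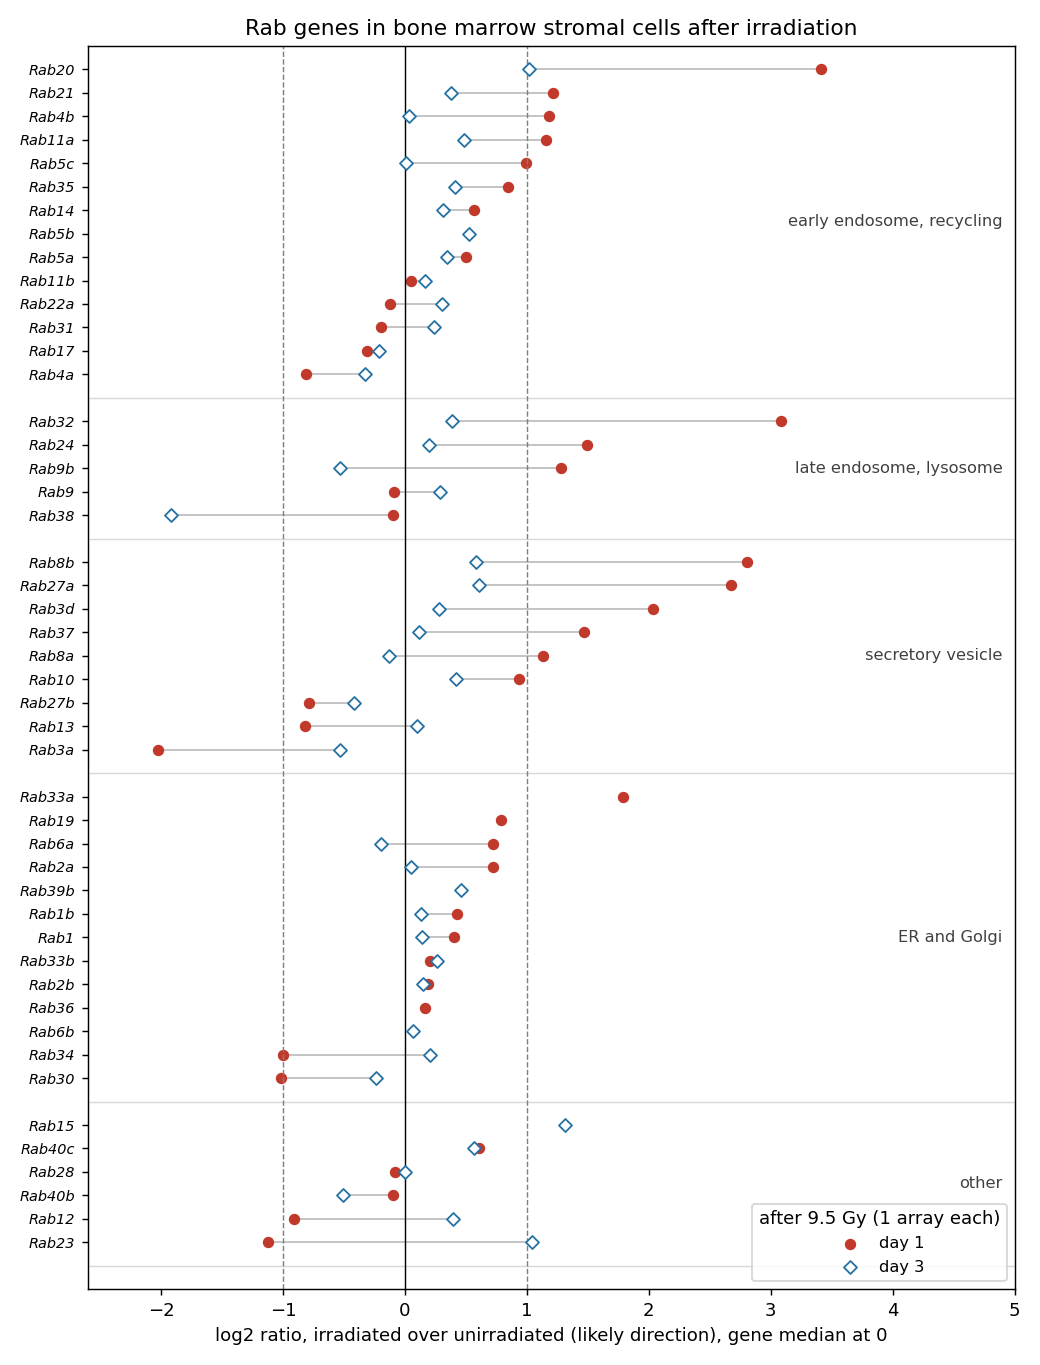
Log2 ratio (x axis, irradiated over unirradiated in the likely direction) of every Rab gene with a ratio, in rows grouped by site of action, with filled circles for day 1, open diamonds for day 3 and dashed lines at 2-fold. Rab20 (3.41), Rab32 (3.08), Rab8b (2.81) and Rab27a (2.67) stand far to the right at day 1, and all 4 lie between 0.38 and 1.02 at day 3.

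Rab genes of the early endosome and the recycling route were mostly above 0 at day 1. Their median was 0.57, and among the 13 with a ratio 4 passed 2-fold upward and none downward, where the shares over all genes at day 1 were 19.6% and 11.1%. Rab20, a GTPase of endosomes and maturing phagosomes, had a log2 ratio of 3.41 at day 1, or 10.6-fold, and of 1.02 at day 3. It was the highest Rab gene at day 1, and at day 3 it lay just past 2-fold. Rab21, which takes part in integrin uptake, stood at 1.22 at day 1 and 0.38 at day 3. Rab4b, of the fast recycling route, stood at 1.18 at day 1 and 0.04 at day 3, and Rab11a, of the recycling endosome, at 1.16 at day 1 and 0.49 at day 3. All 3 were past 2-fold at day 1 and within it at day 3. Rab5c, an early endosome Rab, lay just inside the threshold at day 1 (0.99) and at 0.01 at day 3. The remaining 8 genes of the group ranged from -0.81 (Rab4a) to 0.85 (Rab35, which recycles cargo to the plasma membrane) at day 1. At day 3, 13 of 14 early endosome and recycling genes were within 2-fold, as were 85.8% of all genes, and the median was 0.31.

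Of 5 genes of late endosomes, lysosomes and lysosome-related organelles, all had a ratio, and 3 passed 2-fold upward at day 1, against 19.6% of all genes. Rab32, which directs cargo to lysosome-related organelles such as melanosomes, had a log2 ratio of 3.08 at day 1, or 8.47-fold, and of 0.38 at day 3. Rab24, linked to autophagy, stood at 1.49 at day 1 and 0.20 at day 3, and Rab9b, of the route from late endosomes to the Golgi, at 1.28 and -0.53. Rab9 of the same route stayed near 0, with -0.09 at day 1 and 0.29 at day 3. Rab38, the melanosome partner of Rab32, was at -0.09 at day 1 and at -1.92 at day 3, or 3.79-fold lower, and was the 1 Rab gene at least 2-fold lower on that array. The group's median of 1.28 at day 1 rests on few genes and became 0.27 when Rab7b and Rab29, named on the platform by a clone name and by Rab7l1, were added.

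The secretory Rabs held the widest range at day 1. Of 9 with a ratio, 5 were at least 2-fold higher and 1 lower, with a median of 1.13, where 19.6% of all genes were higher and 11.1% lower. Rab8b, of exocytic traffic to the plasma membrane, had a log2 ratio of 2.81 at day 1 and 0.58 at day 3. Rab27a, which docks secretory granules and is lost in the ashen mouse, had 2.67 at day 1 and 0.61 at day 3. Both were more than 6-fold higher at day 1 and within 2-fold at day 3. Rab3d, of regulated granule secretion, stood at 2.03 at day 1 and 0.28 at day 3. Rab37, found on secretory granules of mast cells, stood at 1.47 and 0.12, and Rab8a at 1.13 and -0.13. At the other end, Rab3a, best known from synaptic vesicles, had a log2 ratio of -2.02 at day 1, or 4.06-fold lower, and of -0.53 at day 3. It was the lowest Rab gene at day 1, with Rab13, a Rab of tight junctions, at -0.82 and Rab27b at -0.79. None of the 9 secretory genes was outside 2-fold at day 3, where 85.8% of all genes were also within it. Their median there was 0.12.

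Rabs of the endoplasmic reticulum and Golgi were mostly within 2-fold, as were 69.3% of all genes at day 1 and 85.8% at day 3. Of 11 at day 1, 1 was at least 2-fold higher and 1 lower, and none of 10 was outside 2-fold at day 3. Rab33a, a relative of the Golgi Rab Rab33b, was at 1.79 at day 1 and had no ratio at day 3. Rab30, a Golgi Rab, was at -1.02 at day 1 and -0.24 at day 3, and Rab34, of the Golgi and the primary cilium, was just inside the threshold at -0.999 at day 1 and stood at 0.20 at day 3. The core Rabs of transport between the endoplasmic reticulum and Golgi were modestly above 0 at day 1, with Rab1 at 0.40, Rab1b at 0.43, Rab2a at 0.72 and Rab6a, of the Golgi, at 0.72. At day 3 these 4 lay between -0.20 and 0.14.

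Among the 6 remaining genes, Rab23, a ciliary Rab that restrains Hedgehog signalling, was at -1.12 at day 1 and at 1.04 at day 3. It was lower by just over 2-fold on the first array and higher by just over 2-fold on the second. Rab15 had no ratio at day 1 and was the highest Rab gene at day 3, at 1.31. It acts in endosomal recycling but was not listed in the early endosome and recycling group, whose counts and medians leave it out. Rab12, which promotes lysosomal breakdown of the transferrin receptor, was at -0.91 at day 1 and 0.40 at day 3. Rab28, Rab40b and Rab40c were within 2-fold on both arrays.

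Of the 3 lower calls at day 1, those of Rab23 and Rab30 lay near the threshold and depended on the centring. With the density peak of all genes set to 0, 0.19 was added to every day 1 value. Rab23 (-0.93) and Rab30 (-0.83) then came inside 2-fold. Rab3a alone stayed lower, at -1.83, and 16 of 43 Rab genes were higher. Of all 10434 named genes, 2467 were higher and 774 lower with that centring. Setting ribosomal protein genes to 0 added 0.52 on both arrays. It gave 22 higher and 1 lower of 43 Rab genes at day 1, and 8 higher and 1 lower of 44 at day 3. Over all 10434 named genes at day 1 the same centring gave 3372 higher and 363 lower. Over all 11404 at day 3 it gave 2547 higher and 285 lower. It put the Rab median at 1.02 at day 1 and 0.72 at day 3.

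At day 3 after irradiation most Rab genes were within 2-fold. Of 44 with a ratio, 3 were at least 2-fold higher (6.82%), where the share over all 11404 named genes was 7.35%, and 1 was at least 2-fold lower (2.27%), where the share over all genes was 6.85%. The 3 higher genes were Rab15, Rab23 and Rab20, and the lower one was Rab38. The middle of the family was tight: the quartiles were 0.01 and 0.40 for the Rab genes, against -0.41 and 0.42 for all named genes. The median was 0.20, and 34 of the 44 lay above 0.

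**Figure D2:**
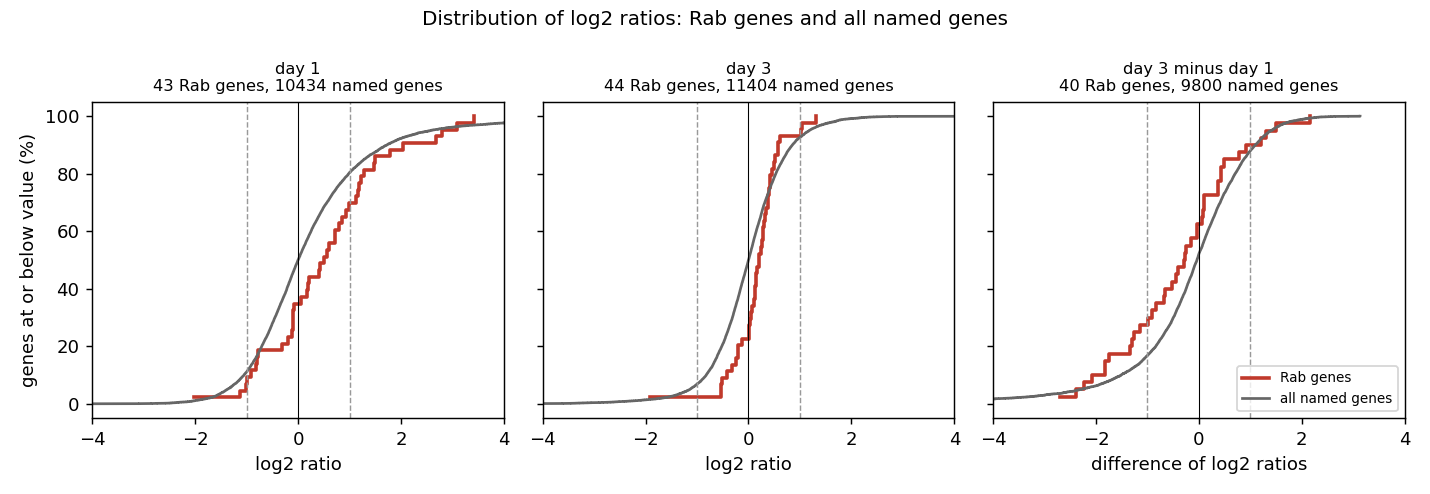
Cumulative share of genes (y axis, %) at or below a log2 ratio (x axis) for the Rab genes and all named genes at day 1, at day 3 and for the difference between the arrays, with dashed lines at 2-fold. Over most of its range the Rab curve lies to the right of the other at day 1 (medians 0.50 and 0) and to the left for the difference (medians -0.28 and -0.04), with crossings at the ends, and it is steeper at day 3.

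Between the arrays, Rab genes were more often lower than higher at day 3 relative to day 1. Of the 40 genes with a ratio on both, 11 were at least 2-fold lower (27.5%), where the share over all 9800 genes was 16.8%, and 4 were at least 2-fold higher (10%), where the share over all genes was 12.1%. Both arrays carry unirradiated RNA that may be the same extract, and granulocyte markers differed by a median of -7.75 over 13 genes on the same scale, whose part in the Rab difference was not tested. The largest decreases were in Rab32 (-2.70), Rab20 (-2.39), Rab8b (-2.22) and Rab27a (-2.07), followed by Rab38 (-1.83), Rab9b (-1.81) and Rab3d (-1.75). Rab37 (-1.35), Rab24 (-1.29), Rab8a (-1.26) and Rab4b (-1.15) complete the 11. The 4 genes at least 2-fold higher were Rab23 (2.16), Rab3a (1.49), Rab12 (1.31) and Rab34 (1.20), and with Rab30 these are the 5 lowest Rab genes at day 1. The day 1 value is subtracted in the difference. Genes lowest or highest at day 1 are therefore favoured to show large differences by construction, error of the single array included.

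Of 23 paralogous pairs considered, 13 had both ratios at day 1, and in 8 of the 13 the log2 ratios were at least 2-fold apart. Among all pairs of Rab genes on that array 53.6% were as far apart, and among all pairs of named genes 49.3%. Different probes of a single gene differed on that array by a pooled SD of 0.76 over 85 genes, so the difference of a pair of probes has an SD of 1.07 from this source, and 3 pairs differed by more than 2 such SDs. Rab3a stood at -2.02 and Rab3d at 2.03, a difference of -4.06. Rab27a stood at 2.67 and Rab27b at -0.79, a difference of 3.46. Rab32 stood at 3.08 and Rab38 at -0.09, a difference of 3.18. In each of these 3 pairs 1 gene was at least 4-fold higher and its partner was below 0. Rab4a and Rab4b (-1.99), Rab8a and Rab8b (-1.67), Rab33a and Rab33b (1.59), Rab9 and Rab9b (-1.37) and Rab11a and Rab11b (1.10) were at least 2-fold apart and within 2 such SDs. Rab1 and Rab1b (-0.02) and Rab22a and Rab31 (0.07) had nearly equal ratios.

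At day 3, 3 of 15 pairs were at least 2-fold apart, where the shares were 11.5% of all Rab pairs and 29.6% of all gene pairs, with a pooled SD between probes of 0.58 over 116 genes. Rab32 (0.38) and Rab38 (-1.92) differed by 2.30, Rab40b (-0.51) and Rab40c (0.57) by -1.07, and Rab27a (0.61) and Rab27b (-0.42) by 1.02. The Rab32 pair was the 1 pair beyond 2 SDs of such a difference. Whether the probes of paralogs cross-hybridise was not assessed.

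**Figure D3:**
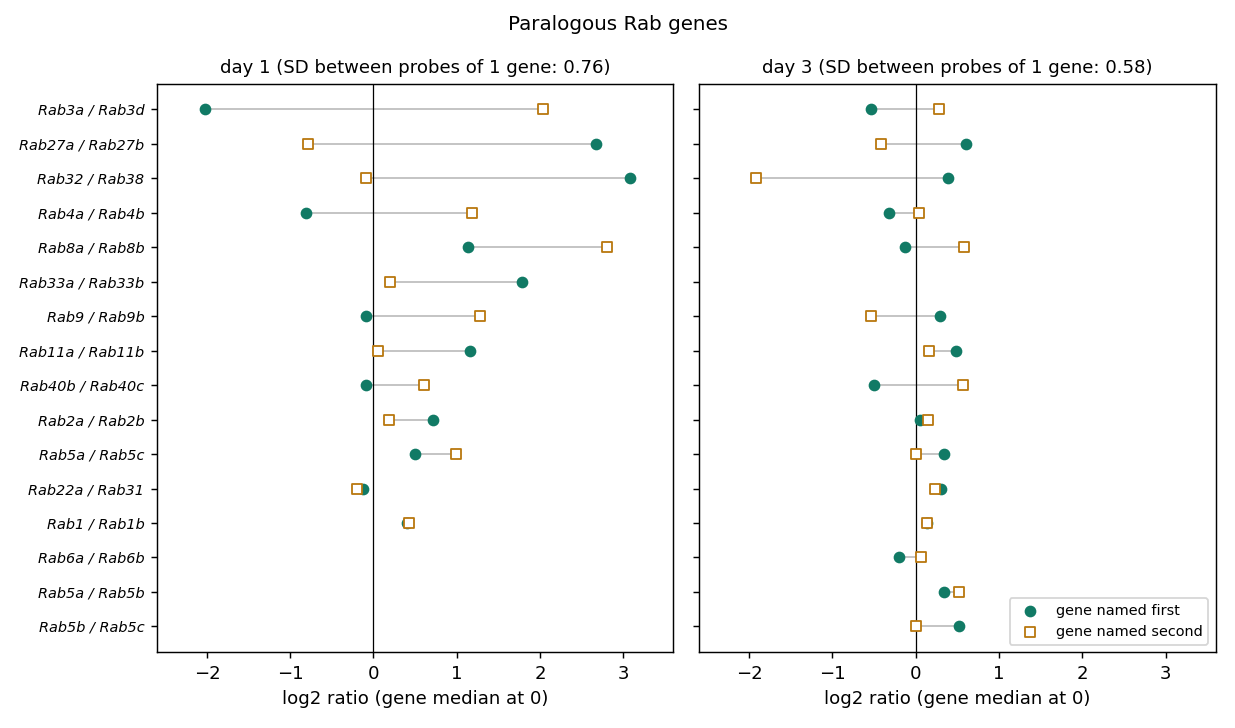
Log2 ratios (x axis) of the genes of each paralogous Rab pair with a ratio on at least 1 array, joined by a line, with filled circles for the gene named first and open squares for the gene named second. At day 1 the pairs Rab3a and Rab3d, Rab27a and Rab27b, and Rab32 and Rab38 are 3.18 to 4.06 apart in size, and at day 3 the last of these remains apart by 2.30.

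The machinery that loads Rabs into membranes was represented by 7 genes for prenylation, escort and GDP dissociation inhibition, with medians of -0.19 at day 1 and -0.28 at day 3. None was outside 2-fold on either array, but 69.3% of all genes at day 1 and 85.8% at day 3 were also within it. Rabggtb, the catalytic subunit of Rab geranylgeranyl transferase, stood at -0.87 at day 1 and -0.41 at day 3, and Rabac1 at -0.61 and -0.32. Chm, a Rab escort protein, was the highest on both arrays, at 0.41 and 0.25, and Gdi2, a GDP dissociation inhibitor, was at 0.21 and -0.63.

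Exchange factors and GAPs had the highest single values of the pathway at day 1. The median was 0.52 over the 24 exchange factors with a ratio, of which 9 (37.5%) passed 2-fold upward and none downward, against 19.6% and 11.1% of all genes. Dennd1c, which acts on Rab35, stood at 6.47 at day 1 and had no ratio at day 3, Dennd2d at 3.84 and 0.98, and Rin3, which acts on Rabs of the Rab5 group, at 3.62 and 1.30. Sbf1 was at -0.90 at day 1 and -1.20 at day 3, and Rab3il1, an exchange factor that binds Rab3a, at -0.97 and -0.55. Of 30 exchange factors at day 3, 3 were at least 2-fold higher and 1 lower, near the 7.35% and 6.85% of all genes, and Rin1, without a ratio at day 1, was at 1.28.

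Of 25 GAPs at day 1, 9 were at least 2-fold higher (36.0%) and 1 lower, with a median of 0.22, against 19.6% and 11.1% of all genes. Tbc1d10c, a GAP known from lymphocytes, stood at 4.33 at day 1 and -0.71 at day 3, and Tbc1d8 at 4.31 and 1.20. Tbc1d12 was the 1 lower gene, at -1.60 at day 1 and 0.06 at day 3, and Sgsm3 was at -0.9996 and -0.31. Tbc1d8 was the 1 GAP of 26 past 2-fold at day 3, where 85.8% of all genes were within it. The next highest there was Tbc1d22a (1.46 at day 1 and 0.77 at day 3), and the lowest was Tbc1d22b (-0.87).

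Among effectors, which bind the GTP form, 6 of 25 passed 2-fold upward at day 1 (24.0%) and 1 downward, with a median of 0.23. The upward share was near the 19.6% of all genes, and 11.1% of all genes were lower. The Rab11 effector Rab11fip1 stood at 2.34 at day 1 and -0.06 at day 3, the Rab7 effector Plekhm1 at 1.97 and 0.09, and the Rab8 effector Optn at 1.93 and 0.96. Rab11fip3 was at -1.20 at day 1 and -0.36 at day 3, and the dynein adaptor Bicd2 at -0.97 and -0.23. At day 3, 1 of 28 effectors was higher and 1 lower, against 7.35% and 6.85% of all genes. The higher one was the Rab5 effector Rabep1 (1.30), and the lower one was Unc13d (-1.61, with 0.17 at day 1), which primes granules together with Rab27a. The Rab3 effector Rph3a stood at -0.81 at day 3.

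**Figure D4:**
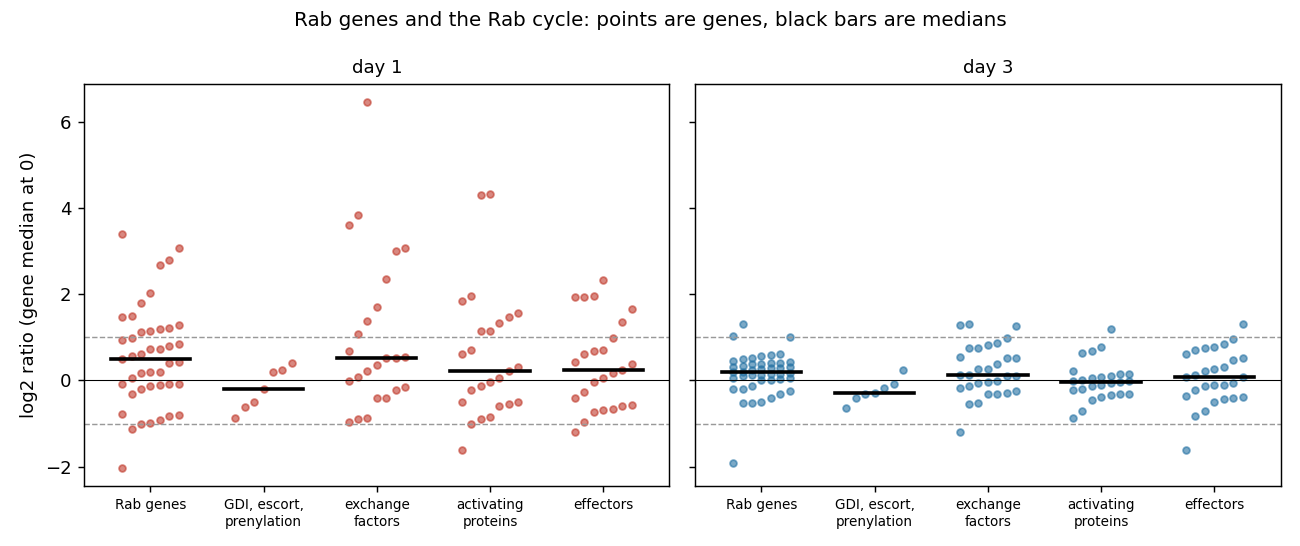
Log2 ratios (y axis) of the Rab genes and of 4 lists of genes of the Rab cycle at day 1 and day 3, with 1 point per gene, a black bar at each median and dashed lines at 2-fold. At day 1 exchange factors reach 6.47 and activating proteins 4.33, while all 7 genes for GDI, escort and prenylation lie within 2-fold.

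Promoter sequences are shown for the highest Rab genes at day 1, Rab20 and Rab32, and for the lowest, Rab3a. Each is the 250 bases before the annotated start of the gene, 5′ to 3′ on the gene's strand, from RefSeq on GRCm38.p6. They lie at chr8:11478641-11478890 on the minus strand for Rab20, chr10:10558208-10558457 on the minus strand for Rab32 and chr8:70754453-70754702 on the plus strand for the first of the annotated starts of Rab3a. Capitals mark matches on either strand to GAGGAAGT, a form of the site of the myeloid factor PU.1, to CACGTG, the E-box bound by lysosomal regulators of the TFEB and MITF group, and to GGGCGG, the GC box of Sp factors.
Rab20: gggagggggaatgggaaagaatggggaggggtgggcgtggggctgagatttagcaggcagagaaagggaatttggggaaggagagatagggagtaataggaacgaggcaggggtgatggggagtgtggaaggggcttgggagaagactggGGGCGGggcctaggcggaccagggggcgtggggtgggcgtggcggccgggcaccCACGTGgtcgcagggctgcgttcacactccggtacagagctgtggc
Rab32: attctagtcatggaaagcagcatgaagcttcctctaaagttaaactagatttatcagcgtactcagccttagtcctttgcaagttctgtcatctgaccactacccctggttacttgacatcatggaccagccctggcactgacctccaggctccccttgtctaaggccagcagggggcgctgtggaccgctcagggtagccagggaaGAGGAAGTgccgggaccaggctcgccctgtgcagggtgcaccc
Rab3a: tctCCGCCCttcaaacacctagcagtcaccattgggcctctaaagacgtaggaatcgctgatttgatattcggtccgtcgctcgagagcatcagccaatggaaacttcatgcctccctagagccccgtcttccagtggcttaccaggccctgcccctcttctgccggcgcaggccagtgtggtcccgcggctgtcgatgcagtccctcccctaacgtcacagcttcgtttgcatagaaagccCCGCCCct

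The Rab20 window held an E-box 46 bases and a GC box 100 bases before the start. The Rab32 window held the GAGGAAGT match 43 bases before the start, and no match to the other motifs. The printed Rab3a window held matches to the GC box alone, and that of its second annotated start, at chr8:70754852-70755101, held no match to any of the 3 motifs. Rab8b, the next highest Rab gene at day 1 (2.81), also held matches to the GC box alone in its window, which is not printed. High and low genes were thus not set apart by these motifs. Of the 51 Rab genes, 43 were matched in the promoter table, with 51 windows in all, and Rab1 was not looked up. E-boxes were found before Rab20, Rab21, Rab23, Rab27a and Rab5a, which is 5 of 43 genes (11.6%), against 6.86% of all 27025 genes in the table. GAGGAAGT was found before Rab2b and Rab32, or 4.65%, against 2.79% of all genes. GC boxes were found before 32 of 43 (74.4%), against 35.4%. The Rab windows were also richer in G and C, with a median of 60.8%, against 52.4% for all 32851 windows. These matches describe letters in the windows and show no binding.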

How the data were processed

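The authors deposited a log ratio of both channels for each probe, read here as log2. Per the labels' protocols, amino allyl amplification preceded the coupling of dyes. The log base, numerator, scanner, background correction, normalisation and the filter behind empty entries are not given in the sources used here. Ratios were missing for 9515 of the 23473 probes at day 1 and for 8056 at day 3. Without intensities, signal over background is unknown, and precision is limited by the number of arrays.

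A single platform symbol was given for 16631 probes and none for 6842. Symbols were updated through RefSeq (GRCm38.p6), by current symbol for 12622 probes and by an older name of 1 gene for 3947. Another 59 were older names of several genes and 3 had no match, and these kept the name given. Rab1, an older name of Rab1a and of 1 other gene, kept its name and was read as Rab1a in the role groups and pairs. Rab2a and Rab6a are Rab2 and Rab6 on the platform.

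Probes were averaged per gene, and the gene median (-0.01 at day 1, 0.02 at day 3) was subtracted from each array in Python 3.11.15 with pandas 2.3.3. Genes at least 2-fold in size were counted, with no test. The counting was tested on simulated data with planted genes. Rab genes past 2-fold on either array or in their difference, the 2 highest and 2 lowest genes of each pathway list per array, and any other Rab gene could be named. The members, gene lists, pairs and marker lists were chosen with earlier results of these data known, and the motifs and the printed promoters after the values were seen. Alternatives changed the centring, probe summary, genes used, size threshold, symbols and sign.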

Additional observations from a re-analysis of the deposited data

Results flagged for a closer look

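Rab23 was at least 2-fold lower at day 1, with a log2 ratio of -1.12, and at least 2-fold higher at day 3, with 1.04. It was flagged because the arrays put it past the threshold in opposite directions, and the difference was not tested. Both values lie near the threshold, and with the density peak at 0 the day 1 value was -0.93.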

How the results depend on the processing

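No paired analysis was possible because each time point had 1 array and no test was made. Of 66 recomputed counts and medians of the Rab genes, 43 kept their direction and stayed within 1.5 times the value. The 66 include the turned sign, whose outcome is fixed by arithmetic. They also include the deposited values without centring, a shift of -0.01 at day 1 and 0.02 at day 3. The share of 43 is therefore no measure of how stable the results are. Other summaries of probes are not counted, since each Rab gene had 1 probe and they could not move it beyond the centring. With ribosomal protein genes at 0 the Rab median was 1.02 at day 1 and 0.72 at day 3, and with the density peak at 0 that of the difference was -0.47. A 1.5-fold threshold gave 20 higher and 8 lower at day 1. A 3-fold threshold gave 6 higher and 1 lower at day 1, 0 higher at day 3, and 1 higher and 7 lower for the difference. Shares over all named genes are not given at these thresholds, so these counts cannot be set against them. Setting ribosomal protein genes to 0 gave 22 higher and 1 lower of 43 at day 1 and 8 higher of 44 at day 3. Over all named genes it gave 3372 higher and 363 lower of 10434 at day 1, and 2547 higher of 11404 at day 3. The density peak at 0 gave 1 lower at day 1, where 774 of all genes were lower. Turning the sign exchanged the counts, to 3 higher and 13 lower at day 1, 1 higher and 3 lower at day 3, and 11 higher and 4 lower for the difference, with medians of -0.50, -0.20 and 0.28. Among the group medians, those that changed sign with ribosomal protein genes at 0 were the GAPs at day 3 (0.49), the prenylation and escort genes (0.33 at day 1, 0.24 at day 3) and the Rabs without a group at day 1 (0.43). With the density peak at 0 the prenylation and escort median was 0.0054 and that of the Rabs without a group 0.10 at day 1. With current symbols the late endosome and lysosome median was -0.088 at day 3. These follow from the shift added to all genes or from the added members. The absence of replicate arrays, dye swaps and intensities limits every value.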

Other observations

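Genes that the platform lists under other names carry Rab symbols today and were outside the rule. Rab44, a large Rab GTPase known from mast cells and listed under a clone name, stood at 5.26 at day 1 (38.4-fold higher) and had no ratio at day 3, above every Rab gene counted. Rab43, a Golgi Rab also listed under a clone name, stood at 2.41 at day 1 and 0.67 at day 3. Rab7b stood at -0.28 and -0.09, and Rab29 at 0.27 and -0.13. With these 4 added, 15 of 47 passed 2-fold upward at day 1 (31.9%) and 3 downward, against 19.6% and 11.1% of all genes.

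Rab-like genes were also read. Ift27, a Rab-like subunit of intraflagellar transport listed as Rabl4, stood at -1.17 at day 1 and -0.08 at day 3, and Ift22, listed as Rabl5, at -0.74 and 0.22. Rabl3 was at -0.55 and -0.37, and Rabl2 at 0.46 and 0.85.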
